A study of Rattus norvegicus with 8 samples.

Results

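The genes described here are autosomal genes with a probe whose array signal lay near background in NR8383 cells at passage 20 (P20) and clearly above it at passage 200 (P200). NR8383 is a macrophage cell line obtained by washing out the lungs of a normal rat, and its cells grow partly attached and partly floating. Total RNA was taken 48 h after seeding and hybridised to single-colour (Cy3) Agilent rat arrays, with 4 biological replicates at P20 and 4 at P200. No treatment, deletion or transgene was applied, so the groups differ by passage number alone as far as the labels state. Both come from 1 cell line, and the labels do not say whether the replicates at a passage are separate cultures kept apart for longer than the 48 h or whether the P200 cells descend from the P20 stock used here.

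The members were chosen by their signal in this same contrast. The signal is log2 of the scanner's processed intensity, averaged over the spots of a probe, minus the 75th percentile of its array, so that 0 is the 75th percentile and each unit is a doubling. A probe was taken when it lay below -3.5 on all 4 P20 arrays and above -3 on all 4 P200 arrays and mapped to chromosomes 1 to 20 other than 7. In intensity units the P20 limit fell between 23.9 and 28.9 on the P20 arrays and the P200 limit between 24.6 and 46.1 on the P200 arrays. Of 45598 probes that are no controls, 38461 mapped to these chromosomes and 36 met both limits. After Alox5ap, Tns1, St6galnac3 and Flt1 were left out by name, 32 probes for 30 of the 35905 genes or transcripts on the array remained. The name Smoc1 was to be left out too, but its probes did not meet the limits. The reverse pattern, above -3 on all P20 arrays and below -3.5 on all P200 arrays, was met by 58 probes of the same chromosomes. Because signal chose the members, their difference between P20 and P200 is given below as a description, with no test.

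Alveolar macrophages live on the air side of the lung, where they take up particles, microbes and used surfactant, and their identity rests on a set of transcription factors and surface receptors shared with other myeloid cells. Genes of other lineages are commonly held silent in a differentiated cell by repressive chromatin and by methylation of CpG dinucleotides in or near their promoters. The members fall into several groups: tetraspan surface proteins of the Ms4a family, Ly49 receptors of natural killer cells, receptors that guide growing axons and vessels, and enzymes, channels and transporters best known from liver, kidney or brain.

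The sequences that carry these measurements are of 2 kinds. Given first are 3 probes that cross a gap on the rn4 map that the scanner files use, and that so read joined exons rather than genomic DNA. The Ms4a6b probe (chr1:214162714-214164489) leaves out 1.72 kb of genome, the Faah probe (chr5:136325787-136326538) 0.692 kb and the Ly49s4 probe (chr4:167981613-167991920) 10.2 kb. Capitals in the Ly49s4 probe mark a run of 21 bases that it shares with the probe of LOC690045, another gene of the Ly49 cluster. It was the only run of 20 or more bases that any member probe shared with a probe of another gene on the array.

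Ms4a6b probe: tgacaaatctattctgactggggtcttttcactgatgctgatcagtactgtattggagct
Faah probe: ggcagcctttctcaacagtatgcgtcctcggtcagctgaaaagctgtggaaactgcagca
Ly49s4 probe: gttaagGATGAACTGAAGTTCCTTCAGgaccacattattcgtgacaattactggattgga

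The second kind is the stretch just before the start of transcription, shown for 5 members to set side by side promoters rich and poor in CpG. Each is 250 bases, from RefSeq on assembly GRCr8, with every CpG in capitals. Those of Ms4a6bl1 (chr1:217668076-217668325, plus strand), Ms4a6b (chr1:217705535-217705784, plus strand, the first of its 2 listed starts) and Ly49i2 (chr4:166180683-166180932, minus strand) hold 1, 0 and 0 CpGs. Those of Unc5b (chr20:29307271-29307520, minus strand) and Faah (chr5:134735397-134735646, minus strand) hold 30 and 26.

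Ms4a6bl1 upstream: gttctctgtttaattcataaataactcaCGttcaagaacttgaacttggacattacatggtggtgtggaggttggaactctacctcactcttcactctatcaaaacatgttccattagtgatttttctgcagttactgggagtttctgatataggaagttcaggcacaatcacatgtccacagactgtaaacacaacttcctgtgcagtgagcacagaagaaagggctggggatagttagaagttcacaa
Ms4a6b upstream: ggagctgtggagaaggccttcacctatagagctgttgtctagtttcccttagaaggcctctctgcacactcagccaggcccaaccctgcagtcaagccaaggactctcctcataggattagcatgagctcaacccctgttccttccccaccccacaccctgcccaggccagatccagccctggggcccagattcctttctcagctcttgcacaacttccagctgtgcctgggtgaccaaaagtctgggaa
Ly49i2 upstream: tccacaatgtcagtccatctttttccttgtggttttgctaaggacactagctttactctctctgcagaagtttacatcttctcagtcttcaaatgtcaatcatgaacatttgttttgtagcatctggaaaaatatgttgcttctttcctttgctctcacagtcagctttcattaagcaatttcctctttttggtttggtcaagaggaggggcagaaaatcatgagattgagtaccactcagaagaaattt
Unc5b upstream: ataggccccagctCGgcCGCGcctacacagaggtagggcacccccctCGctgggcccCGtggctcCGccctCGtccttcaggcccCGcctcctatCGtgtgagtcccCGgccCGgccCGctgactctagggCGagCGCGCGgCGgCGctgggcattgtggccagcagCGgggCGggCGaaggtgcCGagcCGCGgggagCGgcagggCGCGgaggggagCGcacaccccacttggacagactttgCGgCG
Faah upstream: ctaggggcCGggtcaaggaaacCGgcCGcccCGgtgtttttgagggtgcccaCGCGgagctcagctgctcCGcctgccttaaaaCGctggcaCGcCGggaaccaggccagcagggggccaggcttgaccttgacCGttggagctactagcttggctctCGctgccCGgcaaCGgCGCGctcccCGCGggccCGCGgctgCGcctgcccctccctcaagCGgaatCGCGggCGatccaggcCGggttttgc

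All 32 member probes were well above background, by the mark of the scanner software, on all 4 P200 arrays. A probe was counted as above background on an array only where all its spots were so marked. By that measure 28 members were above background on no P20 array. The other 4 were Unc5b, Ankrd6 and Ncr3lg1, each above background on 1 P20 array, and ENSRNOT00000075713, above it on 2, so the words off and on do not hold strictly for these. Cd6, Car11 and Fbxl16 have 2, 10 and 10 spots an array, and 3 of 8, 9 of 40 and 1 of 40 of their P20 spots were marked above background. The median over members lay between -5.61 and -4.91 on the P20 arrays and between -2.08 and -1.998 on the P200 arrays. A single member, Ms4a6bl1, had a P200 mean above the 75th percentile of the array, and 17 had a P200 mean below -2. The differences of the means ran from 1.63 to 5.53, with a median of 3.21. Over all probes that are no controls, 4.27% had all P200 arrays above all P20 arrays, and in a limma fit of 19434 probes 5.53% rose and 5.18% fell.

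P20 values below background have no order, and their spread is not read as biological. Where no P20 array was above background, the fold is therefore given as a bound: on each array the dimmest signal marked above background, between -4.26 and -3.42 at P20, replaced any lower P20 value before the means were compared. Over the 28 such members the bounds, each for its own probe, ran from at least 2.2-fold to at least 31.9-fold, with a median of 3.4. The SD between P200 arrays ran from 0.10 to 0.53, with a median of 0.20. Just inside the limits lay Cd6, whose highest P20 value was -3.51, ENSRNOT00000075713 (-3.52) and FQ230159 (-3.57). Just outside lay the transcript CX569427, with a highest P20 value of -3.49, Trim55, a muscle ubiquitin ligase (-3.46), and Rgs18, a regulator of G-protein signalling in blood cells (-3.45), all 3 above -3 on every P200 array.

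**Figure D1:**
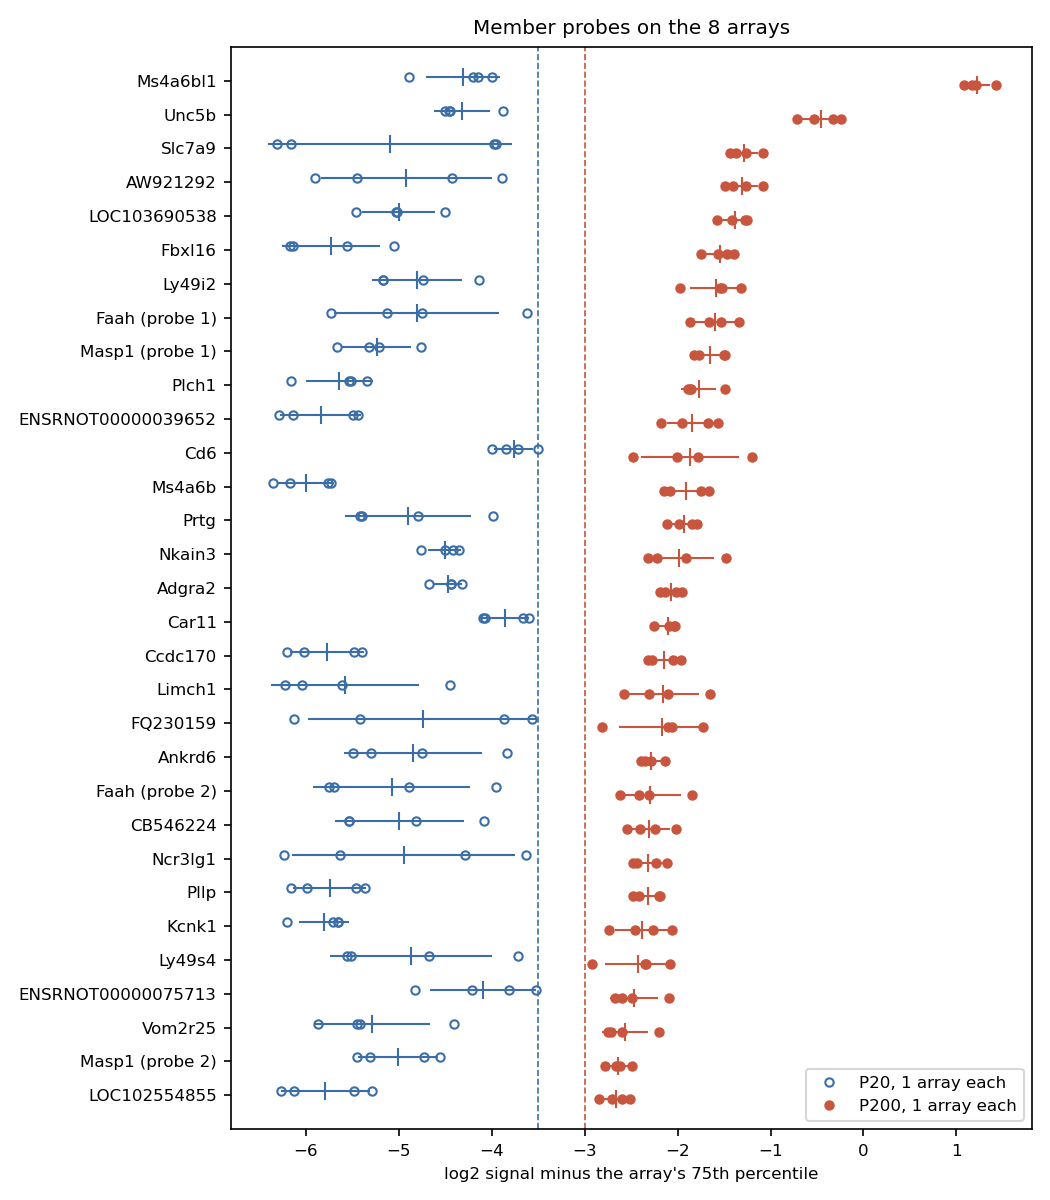
Signal of 31 of the 32 member probes on each of the 8 arrays (x axis, log2 signal minus the array's 75th percentile), open circles for P20 and filled circles for P200, with the mean (tick) and SD (line) of 4 arrays. The dashed lines are the limits that chose the members, -3.5 for P20 and -3 for P200, and Ms4a6bl1 at the top is the only member whose P200 arrays lie above 0.

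Ms4a6bl1 (probe at chr1:214208073-214208132), a tetraspan membrane protein of the Ms4a family, stood furthest from its P20 level. It read -4.14, -4.89, -3.99 and -4.20 on the P20 arrays and 1.08, 1.17, 1.42 and 1.21 on the P200 arrays, in intensity 10.7 to 18.5 units against 454 to 819. Every P200 array thus lay more than 5 log2 units above every P20 array, and the signal of this probe was at least 31.9-fold higher (mean -4.31 ± 0.40 at P20 and 1.22 ± 0.15 at P200, SD, n = 4 each). Ms4a6b, the related gene whose probe lies 43.6 kb away (chr1:214162714-214164489), read -6.17, -6.36, -5.76 and -5.73 at P20. On the P200 arrays it read -2.08, -1.75, -1.66 and -2.14, at least 3.71-fold higher. Cd6, a glycoprotein of T cells that binds the adhesion molecule Alcam, has its member probe 872 kb from that of Ms4a6b (chr1:213290849-213290908). Its values were -3.996, -3.85, -3.72 and -3.51 at P20, all close to the limit, and -1.20, -2.48, -2.003 and -1.78 at P200, where replicate 1 was highest and replicate 2 lowest. The difference of the means was 1.90, and the SD of 0.53 between P200 arrays was the largest among members.

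For both Ms4a6bl1 and Cd6 other probes of the gene go against a gene silent at P20. The other 2 probes of Ms4a6bl1 were above background on all 8 arrays. One read -0.98, -1.11, -1.37 and -0.91 at P20 and 2.32, 2.63, 2.79 and 2.85 at P200. The second read -0.45, -0.74, -0.82 and -0.59 and 2.07, 2.24, 2.38 and 2.43. The gene was therefore measured at both passages and its level was higher at P200 by all 3 probes, with differences of 5.53, 3.74 and 2.93. The bound of 31.9-fold holds for the member probe only, as the other 2 probes rose 13.4-fold and 7.61-fold. The other Cd6 probe was above background on all 8 arrays too, and there the groups overlapped: -0.92, -0.89, -0.68 and -0.78 at P20 against -0.85, -0.79, -0.998 and -0.61 at P200. The 2 Cd6 probes thus disagree, and the separation of the passages by the member probe was fixed by its selection. Alcam, the ligand of Cd6, had means of 3.80 and 3.74 and did not pass the test. Ms4a6b's second probe was above background on no array, with P20 and P200 means of -5.76 and -5.56.

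The Ms4a genes lie in 1 cluster, and the array holds 25 probes for them on chromosome 1. This family was examined after the members were known. Of 23 probes that are no members, 14 were above background on no array and 6 entered the limma fit. Among genes that are no members, Ms4a4a, a macrophage surface protein, rose by both of its measured probes. One read -0.15, -0.17, -0.49 and -0.26 at P20 and 3.91, 4.31, 4.39 and 4.38 at P200 (4.52 ± 0.13 SE, adjusted p = 1.1e-07, n = 4 per group). The other read -1.17, -0.87, -1.25 and -0.85 and 3.34, 3.96, 3.87 and 3.90 (4.80 ± 0.15 SE, adjusted p = 2.04e-07). Ms4a6a read 0.77, 0.76, 0.61 and 0.61 at P20 and 1.30, 1.29, 1.44 and 1.21 at P200, a smaller rise (0.62 ± 0.07 SE, adjusted p = 0.000801). It was not called with array medians as the scale (adjusted p = 0.431), though its difference there was 0.59. Ms4a15, at the end of the cluster nearer Cd6, did not pass the test (-0.07 ± 0.07, adjusted p = 0.64). The B cell gene Ms4a1 and the mast cell gene Ms4a2 were above background on no P200 array. The probes that were higher at P200 thus lay between positions 213959621 and 214216634, and the probes beyond them on either side were dim or near their P20 level.

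**Figure D2:**
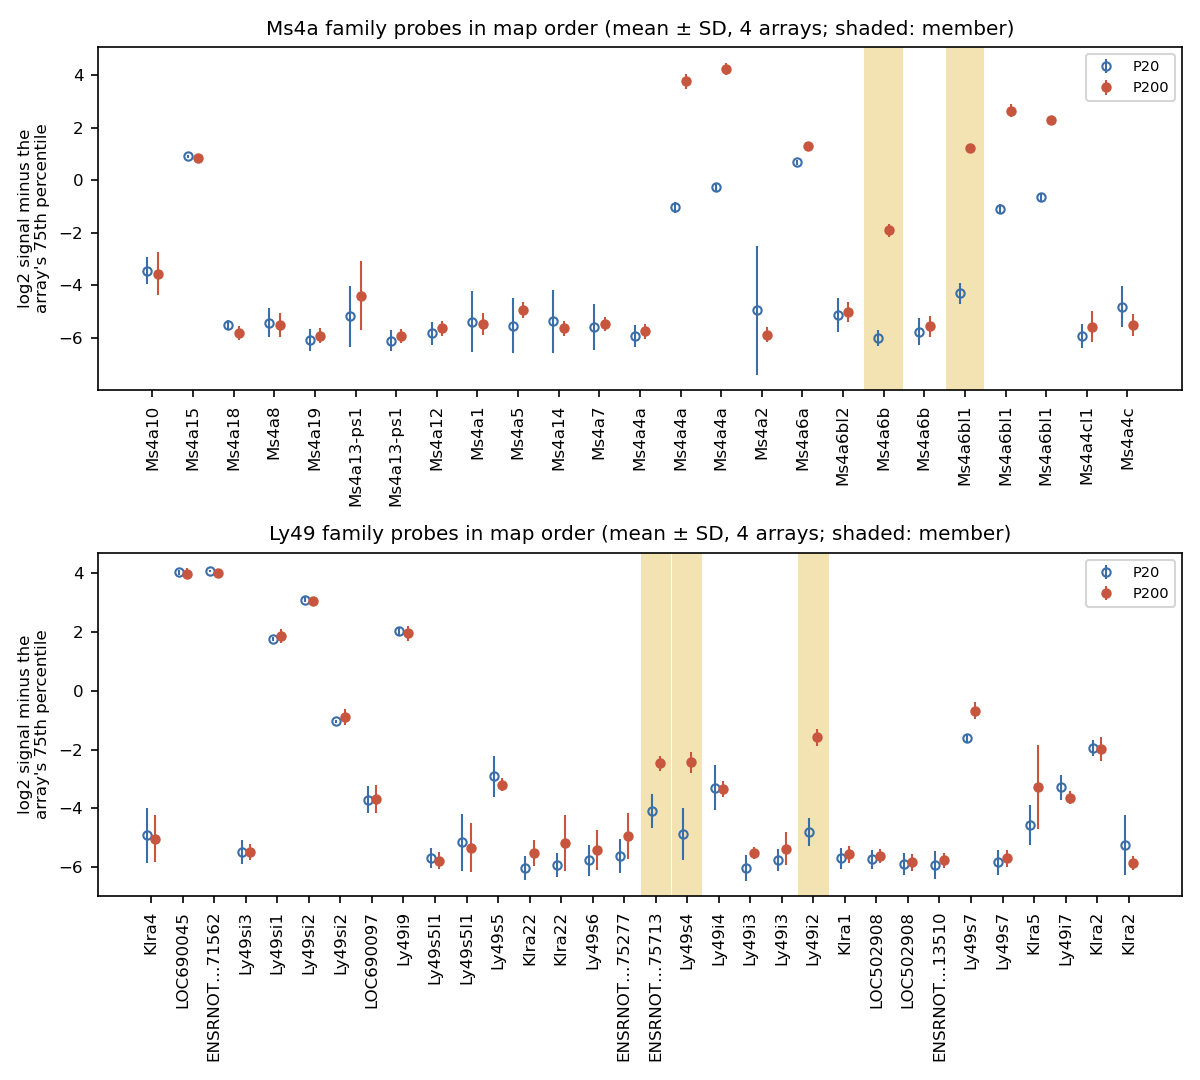
Probes of the Ms4a family (top) and the Ly49 family (bottom) in map order, with the mean and SD of 4 arrays at P20 (open) and P200 (filled) on the log2 scale relative to the array's 75th percentile; member probes are shaded. In the Ms4a panel the probes of Ms4a4a, Ms4a6a, Ms4a6b and Ms4a6bl1 that are above background are higher at P200. The Ly49 panel shows the probes on chromosome 4, and among those that are no members only a probe of Ly49s7 passed the limma test.

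A set of 3 receptors of the Ly49 family formed the next group. Ly49 receptors sit mainly on natural killer cells, bind MHC class I molecules, and either restrain the cell through phosphatases (inhibitory forms) or activate it through the adaptor Tyrobp. Ly49i2, an inhibitory form (chr4:168339917-168339976), read -5.17, -4.74, -4.14 and -5.17 at P20 and -1.32, -1.52, -1.54 and -1.98 at P200. No P20 array was above background, and the level was at least 4.64-fold higher. Ly49s4, named as a stimulatory form in the files and listed as a transcribed pseudogene in RefSeq (chr4:167981613-167991920), read -4.67, -5.56, -3.72 and -5.52 and -2.08, -2.34, -2.35 and -2.92, at least 2.6-fold higher. The run of 21 bases in capitals above ties this probe to LOC690045, whose own probe was far brighter and level, with means of 4.02 at P20 and 3.98 at P200. ENSRNOT00000075713 (chr4:167953746-167953805), which the files describe as Ly49 stimulatory receptor 6, read -3.52, -3.81, -4.83 and -4.21 and -2.60, -2.49, -2.67 and -2.09. It was above background on 2 of 4 P20 arrays, and its difference of 1.63 was the smallest among members. A separate probe named Ly49s6 (chr4:167934420-167934479) was above background on no array, with means of -5.77 at P20 and -5.41 at P200. Genes of this family resemble one another in sequence, and the files list several RefSeq transcripts for the Ly49s4 probe, so signal from another family member cannot be told apart.

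Of 35 probes for the Ly49 family, 32 are no members, of which 16 were above background on no array and 10 on all P200 arrays. Of the 32, 12 entered the limma fit, and 1, a probe of Ly49s7, passed the test, rising from -1.60 ± 0.13 to -0.67 ± 0.28 (0.93 ± 0.14 SE, adjusted p = 0.00278). Several receptors of the family were bright at both passages, among them Ly49si1 (1.77 and 1.86), Ly49si2 (3.10 and 3.05) and Ly49i9 (2.02 and 1.95). The adaptors and partners of these receptors were looked up in a list made after the members were known. Of 11 genes, 7 were measured, 1 rose and 1 fell. These counts and that of the Ly49 probes stand beside 5.53% of all probes tested that rose and 5.18% that fell. Nkg7, a granule membrane protein, rose from -1.996 ± 0.15 to -0.51 ± 0.30 (1.49 ± 0.15 SE, adjusted p = 0.000256), and Klrk1, the activating receptor NKG2D, fell from -1.42 ± 0.18 to -3.61 ± 0.55 (-2.19 ± 0.25 SE, adjusted p = 0.000573). Klrk1 was above background on only 2 of the P200 arrays, so the size of its fall is not exact. The adaptor Tyrobp had means of 8.20 and 8.11 and did not pass the test. Klrd1, Klrb1, Ncr1 and Ncr3 were above background on no array. Markers of lymphocytes were set beside these receptors. Of 12 such genes, 3 were measured (Cd3d, Pax5 and Lck) and 0 passed the limma test, at the adjusted p or at an unadjusted p under 0.05. Cd3g, Cd8a, Ms4a1, Ncr1 and Klrd1 were among 6 of the list above background on no array, and the summed level of the list ran from 0.78 to 1.45 at P20 and from 0.86 to 1.36 at P200.

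Ncr3lg1, a B7-family ligand of the natural killer receptor NKp30, lies on chromosome 1 (chr1:96602032-96602091), and Car11, a brain protein related to carbonic anhydrases but without their activity, lies 429 kb from it (chr1:96172866-96172925). Ncr3lg1 read -3.63, -6.24, -5.64 and -4.29 at P20, above background on replicate 1, and -2.48, -2.23, -2.11 and -2.44 at P200. Car11, measured by 10 spots an array, read -4.08, -4.10, -3.67 and -3.60 and -2.02, -2.10, -2.04 and -2.25. Its SD of 0.10 between P200 arrays was the smallest among members, and its level was at least 3.15-fold higher by the bound and 1.76 log2 units by the means.

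Receptors and regulators of development made up another group. Unc5b, a receptor that repels axons and vessel tips when it binds netrin 1, came next to Ms4a6bl1 by its P200 mean (chr20:28092618-28092677). It read -3.88, -4.45, -4.50 and -4.46 at P20, with replicate 1 apart from the rest and above background, and -0.53, -0.24, -0.33 and -0.71 at P200. The difference of the means was 3.87. A second Unc5b probe read -2.35, -6.33, -5.75 and -5.69 and -3.94, -4.42, -4.31 and -4.23, above background on P20 replicate 1 alone, so its groups overlapped. Of 11 netrin receptors and ligands, 3 were measured and 1 rose, against 5.53% of all probes tested. Flrt3, a membrane protein that binds Unc5 receptors, rose from -2.15 ± 0.71 to -0.54 ± 0.34 (1.62 ± 0.33 SE, adjusted p = 0.0155), a call lost with slide row as a block (adjusted p = 0.0655) and without the filter on dim probes (0.0866). The ligand Ntn1 (-2.44 and -2.42) and the receptor Unc5a (-1.96 and -2.04) did not pass the test, and Dcc and Neo1 were above background on no array. Prtg, an immunoglobulin-domain receptor of the early embryo (chr8:77646866-77646925), read -3.99, -4.79, -5.42 and -5.40 at P20 and -1.84, -1.98, -1.80 and -2.11 at P200, at least 3.49-fold higher.

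Adgra2 and Ankrd6 belong to Wnt and planar polarity signalling. Adgra2, also called GPR124, is an adhesion receptor that with Reck lets vessels answer Wnt7 (chr16:69255504-69255563). It read -4.68, -4.32, -4.44 and -4.44 at P20 and -2.19, -2.01, -1.96 and -2.14 at P200, at least 3.31-fold higher. Ankrd6, also called diversin, binds Dishevelled and turns Wnt signals towards cell polarity (chr5:49099006-49099065). It read -3.84, -4.75, -5.50 and -5.30 and -2.40, -2.13, -2.29 and -2.35, above background on P20 replicate 1, with a difference of 2.56. Its second probe was above background on no array. Of 16 partners in this list, 10 were measured, 3 rose and 0 fell, against 5.53% and 5.18% of all probes tested, and 0 of the 10 fell at an unadjusted p under 0.05 in limma. Prickle2, a core polarity protein, rose from 2.54 ± 0.05 to 3.57 ± 0.10 (1.03 ± 0.07 SE, adjusted p = 1.79e-05). Dvl1 rose from 2.53 ± 0.09 to 3.02 ± 0.04 (0.49 ± 0.06 SE, adjusted p = 0.00154) and Dvl3 from 2.73 ± 0.10 to 3.08 ± 0.05 (0.35 ± 0.07 SE, adjusted p = 0.0121). Both Dishevelled genes lost the call with array medians as the scale (adjusted p = 0.956 and 1), and Dvl3 also with slide row as a block (0.0566), with normexp (0.0633) and without the filter on dim probes (0.139). With array medians their differences were 0.449 and 0.311, close to those reported. Reck was above background on no array, and Wnt7a did not pass the test (-2.64 and -2.62).

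Enzymes, channels and transporters made up another set of members. Faah, the enzyme that breaks down anandamide and related lipid amides, was met by both of its probes. The one at chr5:136329754-136329813 read -5.13, -5.73, -3.62 and -4.75 at P20 and -1.66, -1.86, -1.34 and -1.54 at P200, at least 4.6-fold higher. The exon-crossing probe printed above read -5.76, -4.89, -5.70 and -3.96 and -2.31, -2.62, -2.41 and -1.84, at least 2.84-fold higher. Of 11 enzymes and receptors of endocannabinoids, 8 were measured, 0 rose and 1 fell, against 5.53% and 5.18% of all probes tested. Mgll, which breaks down the other main endocannabinoid, fell from 5.53 ± 0.04 to 5.05 ± 0.11 (-0.48 ± 0.07 SE, adjusted p = 0.00249), a call lost with array medians as the scale (adjusted p = 0.663), and the other 7, among them Napepld, Naaa and Cnr2, did not pass the test. Cnr1 and Trpv1 were above background on no P200 array.

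Masp1, a serine protease that starts the lectin pathway of complement, was also met by 2 probes, 14.6 kb apart. The first, at chr11:79582592-79582651, read -5.32, -5.66, -5.22 and -4.76 and -1.82, -1.77, -1.50 and -1.50, at least 4.46-fold higher. The second, at chr11:79567956-79568013, read -5.31, -4.72, -4.56 and -5.45 and -2.67, -2.62, -2.78 and -2.49, at least 2.24-fold higher. Another Masp1 probe was above background on no array (means of -5.78 and -5.08). Of 12 genes of the lectin pathway, 5 were measured, 2 rose and 2 fell, against 5.53% and 5.18% of all probes tested. The recognition proteins Colec11 (-2.09 ± 0.12 to -1.21 ± 0.18, 0.88 ± 0.10 SE, adjusted p = 0.000769) and Fcna (0.38 ± 0.10 to 0.87 ± 0.12, 0.50 ± 0.08 SE, adjusted p = 0.00514) rose. Serping1, the inhibitor of these proteases, fell from -0.86 ± 0.24 to -2.20 ± 0.55 (-1.35 ± 0.26 SE, adjusted p = 0.011), as did C2, a substrate of the pathway (4.14 ± 0.12 to 3.68 ± 0.24, -0.46 ± 0.12 SE, adjusted p = 0.046). The C2 groups overlapped by 1 array, and its call was lost whichever single array was left out other than P200 replicate 3 (adjusted p up to 0.126), with slide row as a block (0.0708), with array weights (0.152), with array medians as the scale (0.745) and without the filter on dim probes (0.24). Fcna lost its call with array medians as the scale (adjusted p = 0.904) and without the filter on dim probes (0.062), and Serping1 with the latter (0.0667). Masp2, Mbl1 and Mbl2 were above background on no array.

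Slc7a9, the light chain of the transporter that carries cystine and basic amino acids in kidney and gut (chr1:87998978-87999037), read -6.31, -6.16, -3.95 and -3.97 at P20 and -1.26, -1.43, -1.08 and -1.37 at P200, at least 5.72-fold higher. Of 8 related subunits, 7 were measured and 1 rose, against 5.53% of all probes tested. Its partner chain Slc3a1 (-1.23 and -0.70) did not pass the limma test (0.53 ± 0.19 SE, adjusted p = 0.134, unadjusted p = 0.0238). Slc7a8 did, rising from 1.84 ± 0.12 to 2.19 ± 0.15 (0.35 ± 0.09 SE, adjusted p = 0.0481), a call lost whichever single array was left out other than P20 replicate 4 (adjusted p up to 0.122), with slide row as a block (0.158), with array medians as the scale (1) and without the filter on dim probes (0.283). Kcnk1, a potassium channel with paired pore domains (chr19:56255238-56255297), read -6.21, -5.65, -5.71 and -5.66 and -2.06, -2.26, -2.46 and -2.74, at least 2.68-fold higher. Its other probes did not follow: one was above background on no array and the second on 2 P20 arrays and no P200 array. Of 13 other channels of the class, Kcnk6 (2.59 and 2.86) and Kcnk13 (2.11 and 2.14) were measured and 0 passed the limma test, at the adjusted or at an unadjusted p under 0.05. Nkain3, a membrane protein that binds the sodium pump (chr5:34765303-34765362), read -4.42, -4.51, -4.76 and -4.35 and -2.31, -1.91, -2.23 and -1.48, at least 3.53-fold higher.

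Plch1, a phospholipase C that makes the second messengers of phosphoinositide signalling (chr2:153466658-153466717), read -5.35, -6.17, -5.54 and -5.52 at P20 and -1.49, -1.86, -1.88 and -1.87 at P200, where replicate 1 stood above the other 3, and was at least 4.08-fold higher. A second Plch1 probe was higher on every P200 array too (-6.39, -6.19, -5.60 and -5.59 against -3.35, -2.75, -3.198 and -3.29), above background on 3 of them. Another was above background on P20 replicate 1 alone. Fbxl16, an F-box protein of the nervous system (chr10:15087028-15087087), was measured by 10 spots an array and read -6.14, -6.17, -5.56 and -5.06 and -1.74, -1.39, -1.46 and -1.56, at least 4.8-fold higher. Pllp, a proteolipid of myelin and kidney membranes (chr19:10775841-10775900), read -6.16, -5.99, -5.46 and -5.37 and -2.48, -2.20, -2.41 and -2.19, at least 2.79-fold higher. Limch1, which binds non-muscle myosin (chr14:43722350-43722409), read -6.04, -6.23, -5.61 and -4.45 and -2.31, -1.65, -2.10 and -2.57, at least 3.12-fold higher. Its other probe was higher on every P200 array (-6.53, -6.35, -5.76 and -5.72 against -3.35, -4.18, -4.03 and -4.65) but above background on 1 of them. The coiled-coil protein gene Ccdc170 (chr1:35287052-35287111) read -6.20, -6.02, -5.48 and -5.40 and -2.32, -1.96, -2.28 and -2.05, at least 3.14-fold higher. Its other probe was above background on all 8 arrays, at -2.18, -2.35, -1.82 and -1.91 and -1.24, -0.98, -1.02 and -0.56, so this gene too was measured at P20. That probe rose 2.17-fold, less than the bound of the member probe. Vom2r25, a pheromone receptor gene of the vomeronasal organ (chr1:62379017-62379076), read -4.40, -5.87, -5.45 and -5.41 and -2.75, -2.59, -2.71 and -2.20, at least 2.36-fold higher.

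The remaining members are transcripts without a gene name. The 2 expressed sequences AW921292 (chr12:7958826-7958885) and FQ230159 (chr12:7960723-7960782) lie 1.84 kb apart and 1.67 and 3.57 kb from a probe of Flt1, the vascular endothelial growth factor receptor left out by name. AW921292 read -3.89, -5.91, -5.45 and -4.43 at P20 and -1.08, -1.26, -1.40 and -1.49 at P200, at least 5.29-fold higher, and FQ230159 read -6.13, -5.42, -3.87 and -3.57 and -1.72, -2.81, -2.10 and -2.06, at least 3.09-fold higher. FQ230159 had the smallest gap between groups of any member, 0.754. That Flt1 probe met the signal limits too, with means of -4.45 and -1.83, and a second one 74.9 kb beyond FQ230159 was above background on no P200 array. LOC103690538, annotated as non-coding RNA (chr9:57010509-57010568), read -5.46, -5.02, -5.03 and -4.51 and -1.25, -1.27, -1.42 and -1.58, at least 5.37-fold higher. LOC102554855, which the files describe as an uncharacterised non-coding RNA (chr10:106537860-106537919), read -6.27, -6.12, -5.48 and -5.29 and -2.84, -2.70, -2.51 and -2.60, at least 2.2-fold higher, the smallest bound. The transcript ENSRNOT00000039652 (chr2:8851622-8851681), described in the files as similar to a very large G-protein coupled receptor, read -6.29, -6.14, -5.49 and -5.44 and -1.96, -1.57, -1.67 and -2.18, at least 3.89-fold higher. The expressed sequence CB546224 (chr8:115781867-115781926) read -4.82, -4.09, -5.54 and -5.54 and -2.55, -2.41, -2.25 and -2.02, at least 2.82-fold higher.

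A total of 12 member genes have other probes, 15 in all, which the signal limits did not select but which share the arrays and the contrast. Of these, 5 had every P200 array above every P20 array, against 4.27% of all probes that are no controls. The groups overlapped for 10, 4 were above background on all 8 arrays and 6 were above it on 0 arrays. Another 17 members have 1 probe on the array, so no second probe bears on them. Faah and Masp1 are the genes with 2 member probes.

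**Figure D3:**
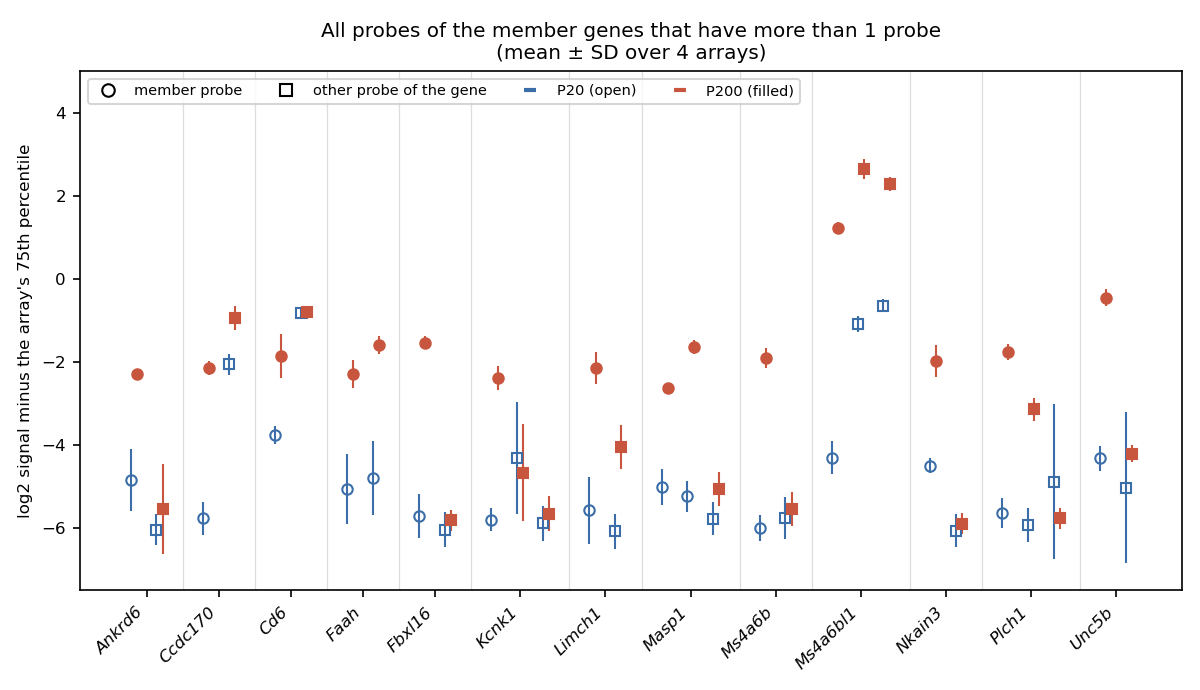
All probes of the 13 member genes that have more than 1 probe, with the mean and SD of 4 arrays on the log2 scale relative to the array's 75th percentile, circles for member probes and squares for other probes, open for P20 and filled for P200. Ms4a6bl1, Cd6 and Ccdc170 have squares that are bright at P20, while the squares of Nkain3, Fbxl16 and Ms4a6b are dim at both passages.

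The members were spread over the map. They lay on 14 of 19 chromosomes, from 0.516 per 1000 probes on chromosome 6 to 1.86 on chromosome 19 among those with a member, against 0.832 over all, and chromosomes 3, 13, 15, 17 and 18 had 0. Genes beside the members were not chosen by signal, and 19 of the 23 measured did not pass the test. The nearest named gene on each side was taken, 57 probes in all, at a median distance of 71.8 kb. Of these, 30 were too dim at both passages to be tested, 4 were members or left out by name, and 23 were measured. Among them 1 rose (4.35%, against 5.53% of all probes tested), 3 fell (13.04%, against 5.18%). The 23 had a median difference of 0.02 against -0.0019 over all probes. Dbp, a clock-controlled transcription factor 5.36 kb from Car11, rose from 2.12 ± 0.07 to 2.47 ± 0.14 (0.35 ± 0.08 SE, adjusted p = 0.0273). Its call was lost when P20 replicate 1, 2, 3 or 4 or P200 replicate 1 or 3 was left out (adjusted p up to 0.078), with slide row as a block (0.0811), without the filter on dim probes (0.209) and with array medians as the scale (1). Metrn, a secreted factor of glia and muscle 24.6 kb from Fbxl16, fell from -0.44 ± 0.09 to -2.70 ± 0.39 (-2.27 ± 0.18 SE, adjusted p = 5.01e-05). Ccl22, a chemokine that attracts regulatory T cells and lies 78.2 kb from Pllp, fell from 0.64 ± 0.24 to -1.88 ± 0.16 (-2.52 ± 0.13 SE, adjusted p = 3.26e-06), and Pcbd1, a cofactor-recycling enzyme 361 kb from Unc5b, fell from -0.21 ± 0.10 to -2.14 ± 0.12 (-1.93 ± 0.08 SE, adjusted p = 8.52e-07). Next to Adgra2, the probe of Brf2 lay 0.396 kb away and did not pass the test (-0.05 ± 0.08, adjusted p = 0.748), nor did Arl2bp 2.07 kb from Pllp (-0.16 ± 0.08, adjusted p = 0.256).

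**Figure D4:**
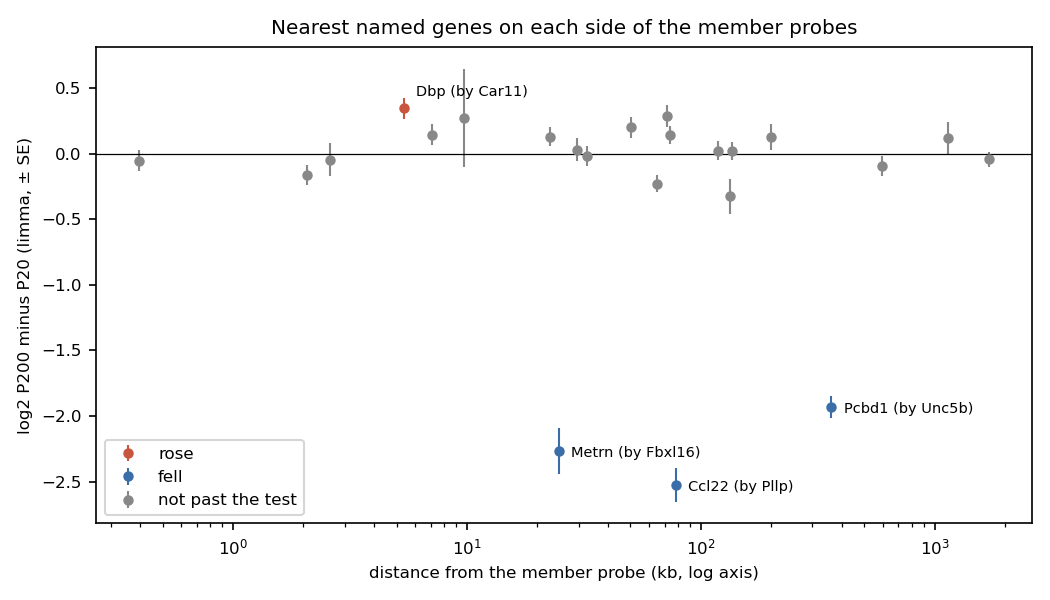
Limma log2 difference, P200 minus P20, with its SE, of the 23 measured genes nearest to a member probe (y axis), against their distance from it in kb on a log axis (x axis). Metrn, Ccl22 and Pcbd1 lie below -1.9, Dbp at 0.35, and the 19 grey points that did not pass the test lie between -0.33 and 0.29.

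Several lists of genes that differentiated cells commonly hold silent or that keep them so were set beside the members, with earlier results of these data known. Of 82 developmental transcription factors on the array, 59 were above background on no array and 11 were measured. Among the latter, Dlx1, a homeobox factor of forebrain interneurons, rose from -1.60 ± 0.22 to -0.52 ± 0.24 (1.08 ± 0.14 SE, adjusted p = 0.00157). In these lists too the calls stand against 5.53% of all probes tested that rose and 5.18% that fell. Of 40 germline genes, 6 were measured, 1 rose and 2 fell. Spocd1, which takes part in silencing of transposons in the male germline, rose from -1.29 ± 0.12 to 2.15 ± 0.03 (3.43 ± 0.07 SE, adjusted p = 3.06e-08). Gtsf1, a partner of Piwi proteins, fell from -1.99 ± 0.27 to -4.54 ± 0.44 (-2.56 ± 0.22 SE, adjusted p = 0.000105), at least 3.14-fold, with no P200 array above background, as did the Piwi protein gene Piwil2 (0.06 ± 0.12 to -0.77 ± 0.33, -0.83 ± 0.15 SE, adjusted p = 0.00972), a call lost without the filter on dim probes (0.067). Of 33 imprinted genes, 11 were measured, 3 rose and 0 fell. The largest rise was that of Sgce, a sarcoglycan expressed from the paternal copy, which was above background on no P20 array and at least 2.26-fold higher at P200 (2.46 ± 0.26 SE, adjusted p = 0.000412). It was no member, since one of its P200 arrays read -3.14. The 2 smaller rises were those of Inpp5f (0.41) and Slc22a18 (0.39), both lost with array medians as the scale (adjusted p = 1 each), and the second also when P20 replicate 2 or 3 or P200 replicate 3 was left out (adjusted p up to 0.0618), with slide row as a block (0.0734) and without the filter on dim probes (0.153), which also ended the call of Inpp5f (0.062). Of 47 genes of DNA methylation and repressive chromatin, 40 were measured, 4 rose and 0 fell, a share of calls close to the 10.7% of all probes tested. The largest was Dnmt3b, a DNA methyltransferase, which rose from -2.96 ± 0.23 to -1.88 ± 0.11 (1.08 ± 0.12 SE, adjusted p = 0.000424). The other 3, Mbd4 (0.26), Cbx8 (0.32) and Sirt1 (0.33), were small. Cbx8 and Sirt1 lost the call in most fits without 1 array (adjusted p up to 0.136 and 0.137). They also lost it with array medians as the scale, with normexp, with the replicate number as a block and without the filter on dim probes. Sirt1 lost it with slide row as a block (0.178) and with quantile normalization (0.0549) as well. The call of Mbd4 was not followed through the other settings.

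Markers of other cell types were compared in the same way, and their calls stand against 5.53% of all probes tested that rose and 5.18% that fell. Of 16 neural genes, 12 were above background on no array, among them Snap25, Tubb3, Map2, Stmn2 and Dcx, 1 was measured and did not pass the test, and the summed level of the list ran from -0.08 to 0.37 at P20 and from -0.01 to 0.25 at P200. Of 15 endothelial genes, 5 were measured. Among these is the Flt1 probe that met the signal limits, whose difference the selection fixed, and the other 4 did not pass the test. Of 12 fibroblast genes, 4 were measured and 0 passed the limma test, at the adjusted or at an unadjusted p under 0.05. Of 15 macrophage genes, 12 were measured, 0 rose and 2, Cd14 and Itgam, fell, and the summed level of the list was 10.2 to 10.4 at P20 and 10.2 at P200. Such sums rest mostly on the brightest genes of a list, here Lyz2 (means of 9.43 and 9.25) and Tyrobp (8.20 and 8.11). Adgre1 and Cd163 were above background on no array. In 4 further lists 0 genes rose and 5 fell. Of 15 muscle genes, 6 were measured, and Des (-2.05 ± 0.14 SE, adjusted p = 2.6e-05) and Tnnt1 (-1.18 ± 0.10 SE, adjusted p = 8e-05) fell. Des was above background on only 2 of the P200 arrays, so the size of its fall is not exact. Of 15 genes of lung epithelium, 2 were measured and Cldn18, a claudin of tight junctions, fell at least 1.86-fold (-2.72 ± 0.14 SE, adjusted p = 3.6e-06), its probe being dim on all 4 P200 arrays. Camp, an antimicrobial peptide gene and the 1 measured of 12 granulocyte and mast cell genes, fell (-1.13 ± 0.09 SE, adjusted p = 5.49e-05), as did Clec9a, the 1 measured of 6 dendritic cell genes on the array (-0.88 ± 0.13 SE, adjusted p = 0.00268). The part of other cells in the members' signal was not tested. In bulk RNA fewer cells of a type and less RNA per cell cannot be told apart.

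The promoter of a member, which the rule did not use, could be examined for 17 of the 24 member genes with a RefSeq gene entry. In windows of 300 bases, 250 before and 50 after the start, the median ratio of observed to expected CpGs was 0.42 over these 17, with Car11 (0.975), Limch1 (0.966) and Prtg (0.945) at one end and Ly49i2 and Vom2r25 (0) at the other. Genes in the limma fit had a median of 0.77 (9013 genes), and genes with no probe above background on any P20 array a median of 0.31 (6992 genes). Of the 17 members, 6 (35.3%) were rich in CpG, defined as a ratio over 0.6 with a GC content over 50%: Car11, Limch1, Prtg, Unc5b, Faah and Ncr3lg1. The share was 67.0% of genes in the fit and 23.6% of those dim at P20. The members thus ranged over both kinds of promoter, and those of the Ms4a and Ly49 families lay at the poor end. Short motifs were searched on both strands of the same windows. GGGCGG was found in 5 of 17 members (29.4%; 34.9% of all promoters of the table and 59.9% of those of genes in the fit), CCAAT in 5 (29.4%; 37.7%), TGANTCA in 2 (11.8%; 7.33%) and TATAAA in 1 (5.88%; 14.3%, and 7.57% of genes in the fit). GAGGAAGT, CACGTG and TGACGTCA were in 0 of the 17, against 2.44%, 6.65% and 1.91% of all promoters.

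**Figure D5:**
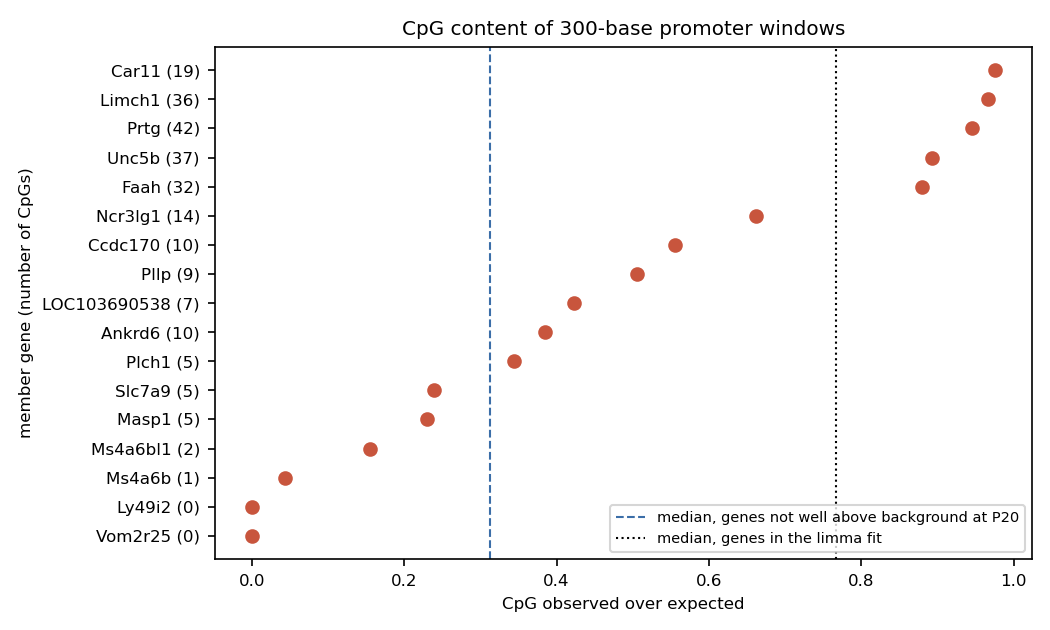
Ratio of observed to expected CpGs (x axis) in the 300-base promoter window of the 17 member genes found in the RefSeq table, with the number of CpGs in brackets after each name; the lines are the medians of genes not above background at P20 (dashed, 0.31) and of genes in the limma fit (dotted, 0.77). Car11, Limch1, Prtg, Unc5b and Faah lie right of both lines, and Slc7a9, Masp1, Ms4a6bl1, Ms4a6b, Ly49i2 and Vom2r25 left of both.

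Depending on the array, 51.0% to 54.5% of spots other than controls were marked above background, and 0 were saturated. All 8 arrays lie on 1 slide read in 1 scan. The slide has its arrays in 2 rows, and P20 replicate 1 shares a row with P200 replicates 2, 3 and 4. Within that row the median difference over members was 3.49, and within the other row 3.13. Each row sets 1 array against 3, and the limits that chose the members fixed a difference in both rows. These values therefore cannot show whether slide row matters.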

How the data were processed

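Per the labels, RNA of NR8383 cells was labelled with Cy3 and hybridised to 8 Agilent arrays. The deposited scanner files give each spot's intensity, linear and never negative. Agilent Feature Extraction 11.0.1.1 is the software named, per the submitters' processing notes. Per the file headers it subtracted background, removed spatial trends within an array and set surrogate values for spots near background. The values are not scaled between arrays. The series matrix was not used. The values of 1 member are not reported here. Each array holds 62976 spots, of which 4259 controls were left out. The processed signal was taken to log2, averaged over the spots of a probe, and each array's 75th percentile was subtracted. The contrast P200 minus P20 was tested by limma 3.58.1 under R 4.3.3 (lmFit, eBayes, no covariate, two-sided, Benjamini-Hochberg, threshold 0.05) over 19434 probes well above background on all 4 arrays of at least 1 group, with outlier spots left out. On data simulated for this comparison 83% of changes of 1 log2 unit and 99% of 2 were recovered among 19434 probes, with 15 false calls in all. The number of arrays limits the precision. The p-values measure the spread between these samples. Names came from RefSeq (assembly GRCr8, 23724 of 45598 probes by accession, 5164 by symbol and 353 by synonym), used for names and promoters, positions from the files (rn4). The members and the gene lists were chosen with earlier results of these data known, and the lists of partners and families after the members were known. For list genes with several probes the brightest measured probe stands for the gene. The rule for naming took, with values on every array, members by P200 signal (up to 20 with a symbol), with several probes or within 1 Mb of another member. It also took the 3 probes nearest the limits on each side, neighbours past the test and up to 3 genes a list with the largest change past it. The values of the remaining members and the other genes named were added after they were seen.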

Additional observations from a re-analysis of the deposited data

Results flagged for a closer look

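Single arrays stood apart from the other 3 of their group for 9 of 170 groups of 4 arrays examined, where the gap to the nearest array exceeded Dixon's critical value for 4 samples. Chance gives about 1 in 20 such groups. Values are log2 signal relative to the array's 75th percentile. On P20 replicate 1 the Unc5b member probe read -3.88, against -4.50 to -4.45 on the other P20 arrays, and the other Unc5b probe read -2.35, against -6.33 to -5.69. A Plch1 probe that is no member read -2.14 on the same array, against -6.24 to -5.56. All 3 were above background there. Kcnk1's member probe was lowest on that array at -6.21, below background. On P200 replicate 1 the Plch1 member probe read -1.49, against -1.88 to -1.86 on the others, and both measured Ms4a4a probes were lowest, at 3.91 against 4.31 to 4.39 and at 3.34 against 3.87 to 3.96. On P200 replicate 4 the Flt1 probe read -2.40, against -1.69 to -1.57, and the Ankrd6 probe that is no member read -3.94, below background. The cause was not tested.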

How the results depend on the processing

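Of 77 values recomputed under other settings, 7 moved far, 0 reversed and the other 70 moved less. Those 70 were not all close to the reported value. The limma calls over all probes numbered 1448 with slide row as a block and 2782 with array weights, against 2080. The number of probes that met the signal limits was 12 with stricter limits, 58 with looser limits and 0 with normexp background correction at the same limits, against 32 as reported. Normexp was run with an offset of 50 units added to every signal, while the P20 limit as reported lay between 23.9 and 28.9 units. The offset by itself could thus keep every probe above that limit, so the count of 0 does not bear on the members. With normexp and limits set at matched percentiles, a setting added after the data were seen, 27 probes met the limits, of which 25 were members. The median difference over members was 0.91 with normexp, where the added offset narrows differences between dim signals. It was 1.69 with P20 values raised to the lowest well-above-background signal, a setting added after the data were seen. The limma calls over all probes fell in number from 2080 to 749 with array medians as the scale and to 926 without the filter on dim probes, and their balance turned from 1074 higher and 1006 lower to 325 and 424 and to 441 and 485. The cause was not tested. With array medians a lost call did not mean a lost difference: that of Dvl1 was 0.449, against 0.486 as reported. The same fit gave an adjusted p of 4.64e-70 for a Ms4a4a probe from 8 arrays. Its p-values were thus extreme in both directions, and the reason was not tested. Without 1 array at a time the number of probes meeting the limits ran from 32 to 38, the median difference from 3.11 to 3.43, the calls from 1415 to 1943, the calls in the gene lists, which include 2 probes that met the signal limits, from 16 to 19 and those beside members from 3 to 5. With the replicate number as a block there were 1733 calls, 17 in the gene lists and 4 beside members, and the median difference was 3.21. Same-numbered replicates did not all deviate together (r = 0.015, 0.121, -0.006 and 0.275), though the last value was the highest of any pair across the groups. These correlations do not settle whether replicate numbers pair the arrays. Signal near background limits every P20 value of a member. Of 36 genes outside the selection that the rule for naming, the partner lists or the families took for passing the test, 21 kept the call under every setting that tested them, 15 lost it under at least 1 and 0 reversed.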
